A study of Mus musculus with 44 samples.

Results

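The 7 genes described here encode carriers that bring amino acids into cells or move lactate across the cell membrane. They were Slc7a5, Slc3a2, Slc1a5, Slc1a4, Slc7a1, Slc38a2 and Slc16a1, chosen by their gene symbols from 12393 genes with 9 of the 20380 probe sets that carried a single symbol. They were measured in 43 samples labelled lymphoma and 1 labelled spleen from Eµ-myc mice. In these animals the enhancer of the immunoglobulin heavy chain gene drives a Myc transgene in B lineage cells, which become lymphomas, and all 44 samples, the spleen among them, carry this genotype in their labels. The labels give no treatment, age or sex, and do not state whether lymphomas came from separate animals and whether the spleen was free of disease. RNA came from tissue or from cell pellets, and the labels do not say which sample was which. Each sample had its total RNA on 1 Affymetrix mouse array, and levels are the deposited log2 values, where 1 unit is a 2-fold difference. The arrays formed 2 sets by title number and column median, 36 lymphomas numbered up to D117 (set 1, medians 6.22 to 6.46) and 7 lymphomas with the spleen numbered from D121 (set 2, medians 6.86 to 7.02). The set was therefore part of every comparison, and centred values are log2 values minus the mean of the lymphomas of the same set. The p-values measure the spread between these arrays.

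Slc7a5 is the light chain that carries leucine and other large neutral amino acids, and Slc3a2 is the heavy chain that brings it to the cell surface. Slc1a5 exchanges neutral amino acids, glutamine among them, Slc1a4 carries serine, alanine and cysteine, Slc38a2 is a sodium-coupled carrier of small neutral amino acids, and Slc7a1 carries arginine and lysine. Slc16a1 is a proton-coupled carrier of lactate and pyruvate. Cells that grow fast import essential amino acids and glutamine for protein and nucleotide synthesis and release lactate made in glycolysis. MYC binds E-box sequences and is known to raise several of these carriers in other cells, and ATF4, the transcription factor of the amino acid response, is known to raise Slc7a5, Slc3a2, Slc1a4, Slc1a5, Slc7a1 and Slc38a2.

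Promoter sequences in RefSeq (GRCm38.p6, 250 bases before to 50 after the start of transcription) were found for 5 of the 7 genes, with 2 starts for Slc7a1. They were searched on both strands for the E-box CACGTG, its variant CACGCG, and TGATGCAA, a C/EBP-ATF element. Both windows that held a match, those of Slc16a1 and Slc1a4, are shown. Whether the matches act on these genes was not tested. Capitals mark the matches. The Slc16a1 window lies at chr3:104638414-104638713 on the plus strand and the Slc1a4 window at chr11:20332664-20332963 on the minus strand, each written 5′ to 3′ along its gene.
Slc16a1: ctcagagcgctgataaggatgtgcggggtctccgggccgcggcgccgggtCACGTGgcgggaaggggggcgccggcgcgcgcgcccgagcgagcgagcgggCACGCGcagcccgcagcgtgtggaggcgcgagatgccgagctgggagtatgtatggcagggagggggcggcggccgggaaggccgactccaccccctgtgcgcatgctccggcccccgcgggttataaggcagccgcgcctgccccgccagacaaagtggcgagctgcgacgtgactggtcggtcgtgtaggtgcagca
Slc1a4: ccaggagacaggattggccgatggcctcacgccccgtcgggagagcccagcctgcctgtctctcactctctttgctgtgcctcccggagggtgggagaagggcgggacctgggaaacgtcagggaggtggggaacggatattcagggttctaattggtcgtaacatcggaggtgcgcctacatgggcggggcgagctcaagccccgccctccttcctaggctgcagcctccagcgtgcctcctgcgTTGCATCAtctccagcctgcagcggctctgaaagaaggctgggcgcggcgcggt
In Slc16a1 the CACGTG began at position -200 from the start and the CACGCG at position -149. In Slc1a4 the TGATGCAA stood on the opposite strand from position -4. Of 32851 promoters of this length 7.15% held CACGTG, 9.27% CACGCG and 0.895% TGATGCAA. The windows of Slc3a2, Slc38a2 and Slc7a1 held none of these letters, and the promoters of Slc7a5 and Slc1a5 were not analysed here.

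Of the 7 genes 6 had at least 1 lymphoma above the median of its set and entered the fits. Slc7a5 ranged in set 1 from 9.32 over a median of 10.34 to 10.96, and in set 2 from 10.71 over 10.98 to 11.27. Slc3a2 ranged from 9.15 over 9.75 to 10.38 and in set 2 from 10.19 over 10.37 to 11.64. Slc1a5 ranged from 8.45 over 9.55 to 10.20 in set 1 and from 9.47 over 10.03 to 10.48 in set 2. These 3 carriers lay above the median of all probe sets in every lymphoma.

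Slc38a2 ranged from 9.79 over 10.70 to 11.59 in set 1 and from 10.42 over 11.49 to 11.81 in set 2. Slc16a1 ranged from 9.38 over 11.16 to 11.86 and in set 2 from 10.37 over 11.85 to 12.43. Both were also above the median of all probe sets in every lymphoma. Slc1a4 ranged from 5.17 over 6.25 to 6.85 in set 1 and from 5.75 over 6.60 to 7.71 in set 2, and 47.2% of set 1 lymphomas had it above the median of all probe sets. Its 3 probe sets had r of 0.865 to 0.896 with one another across the lymphomas, and the one with the highest mean was used. Slc7a1 had a single probe set that lay below the median on every array, at 4.26 to 4.98 in set 1 and 4.97 to 5.22 in set 2, and its centred values spanned 0.72 log2.

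Slc16a1 varied most among these genes, with an SD of 0.71 over the 43 centred values and a range of 5.55-fold, and 85.1% of kept genes had a smaller SD. Slc1a4 (SD 0.49), Slc38a2 (0.46), Slc1a5 (0.41) and Slc7a5 (0.36) also exceeded the median SD of all genes, 0.34, while Slc3a2 (0.32) did not. The spread of Slc16a1 had a break in it. In 6 lymphomas its centred value lay between -1.61 and -1.26, and the next lymphoma stood at -0.51, a gap of 0.75 against 0.15 for the second largest gap. The log2 levels of these 6 were 9.39 in D46, 9.74 in D52, 9.38 in D78, 9.48 in D88 and 9.72 in D89 of set 1, and 10.37 in D163 of set 2. Correlations with Slc16a1 are therefore given over the 37 lymphomas above the gap and over the 6 below it, not over all 43. Its slopes in the fits cover all 43 and so span the gap, unless said otherwise. Since the split was made on Slc16a1 itself, the 37 cover only the upper part of its range. The T cell score (the mean of 13 marker genes, centred) was 0.55 to 2.04 in these 6, against a median of -0.11 over all 43, and the macrophage score was 0.42 to 2.34 against a median of -0.27. The part of these cells in the low values was not tested, and in bulk RNA fewer cells of a type and less RNA per cell cannot be told apart.

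**Figure D1:**
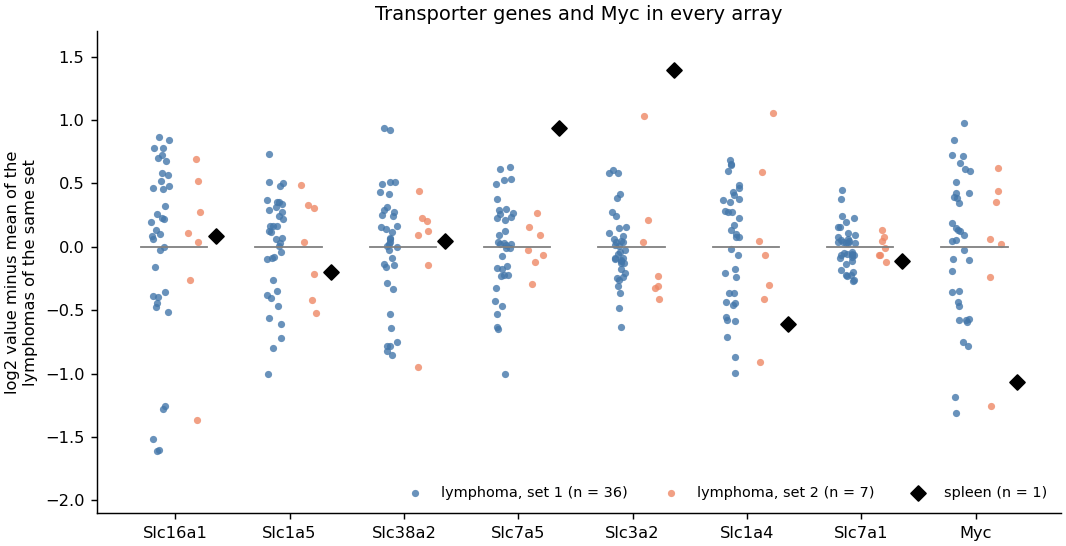
Centred log2 values (y axis, log2 units, with 0 the mean of the lymphomas of the same set) of the 7 carriers and Myc in 36 lymphomas of set 1, 7 of set 2 and 1 spleen, each point 1 array. The 6 lowest Slc16a1 values stand apart from the rest, and the spleen lies above every lymphoma for Slc7a5 and Slc3a2.

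The first question was whether the carriers followed the level of Myc, which ranged from 9.15 over 10.54 to 11.44 in set 1 and from 9.90 over 11.22 to 11.78 in set 2. Slc16a1, Slc38a2 and Slc1a5 rose with Myc, Slc7a5, Slc1a4 and Slc3a2 did not pass the test, and no kept carrier fell. Slc16a1 rose by 0.79 ± 0.14 log2 (SE) per log2 unit of Myc (limma adjusted p = 2.78e-05), which is 1.73-fold. Slc38a2 rose by 0.43 ± 0.10 (limma adjusted p = 0.000877) and Slc1a5 by 0.41 ± 0.09 (limma adjusted p = 0.000283). Slc1a4 had a slope of 0.27 ± 0.13 (limma adjusted p = 0.0838, with 0.10 ± 0.08 and 0.15 ± 0.14 for its other probe sets), Slc7a5 of 0.18 ± 0.09 (limma adjusted p = 0.113) and Slc3a2 of -0.18 ± 0.08 (limma adjusted p = 0.0687). The calls moved with the scaling. With quantile normalization within sets Slc1a4 passed as higher (0.32 ± 0.13, limma adjusted p = 0.0488) and Slc3a2 as lower (-0.22 ± 0.09, limma adjusted p = 0.0383), and with equal column medians Slc1a4 and Slc7a5 passed as higher. As deposited, 3 of 6 carriers were called higher and 0 lower, while over all 8624 genes tested 26.8% were called higher and 17% lower. The median slope was 0.34 for the 6 carriers and 0.03 for all genes. Without the filter on low values Slc7a1 rose by 0.13 ± 0.04 (limma adjusted p = 0.0114), where 20.1% of 12392 genes were called higher.

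Over 43 lymphomas Slc1a5 had r = 0.584 with Myc (permutation p = 5e-05) and rho = 0.488 (permutation p = 0.00127), and r stayed at 0.560 without the 2 lymphomas farthest from the median of Myc, D88 and D163. Slc38a2 had r = 0.541 (permutation p = 0.00023) and rho = 0.447 (permutation p = 0.00307), with 0.422 without those 2. Slc16a1 over the 37 lymphomas above its gap had r = 0.440 (permutation p = 0.00822) and rho = 0.355 (permutation p = 0.0358), but r was 0.286 without the 2 farthest, and in the 6 below the gap it was 0.343 (exact permutation p = 0.468). Slc7a1 had r = 0.458 (permutation p = 0.00195) and rho = 0.443 (permutation p = 0.00357), with 0.481 without the 2 farthest.

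Slc3a2 had r = -0.327 (permutation p = 0.0394) but rho = -0.104 (permutation p = 0.508). Its r was -0.065 without D88 and D163, so the relation rested on those 2 lymphomas, which were low in Myc and high in Slc3a2. Slc7a5 had r = 0.288 (permutation p = 0.0609) and rho = 0.350 (permutation p = 0.0241), with 0.275 without the 2 farthest. Slc1a4 had r = 0.311 (permutation p = 0.0474) and rho = 0.366 (permutation p = 0.0170), with 0.341 without them. These 7 relations were tested two-sided with 100000 permutations within sets, and the adjusted p over all genes is the one given with each slope.

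Within set 1 r with Myc was 0.560 for Slc1a5, 0.505 for Slc38a2, 0.327 for Slc7a5, 0.290 for Slc1a4, 0.485 for Slc7a1 and -0.187 for Slc3a2. Within set 2, with 7 lymphomas, r was 0.719 for Slc1a5, 0.734 for Slc38a2, -0.039 for Slc7a5, 0.396 for Slc1a4, 0.300 for Slc7a1 and -0.772 for Slc3a2. D163 stood at an extreme of set 2, lowest in Myc (centred -1.25) and Slc38a2 (-0.95) and highest in Slc3a2 (1.03). An r within set 2 without D163 was not computed, so the set 2 values of Slc38a2 and Slc3a2 are not independent of that 1 lymphoma. The difference in slope between the sets did not pass for any of the 6 kept carriers (limma adjusted p = 0.9996 for each).

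**Figure D2:**
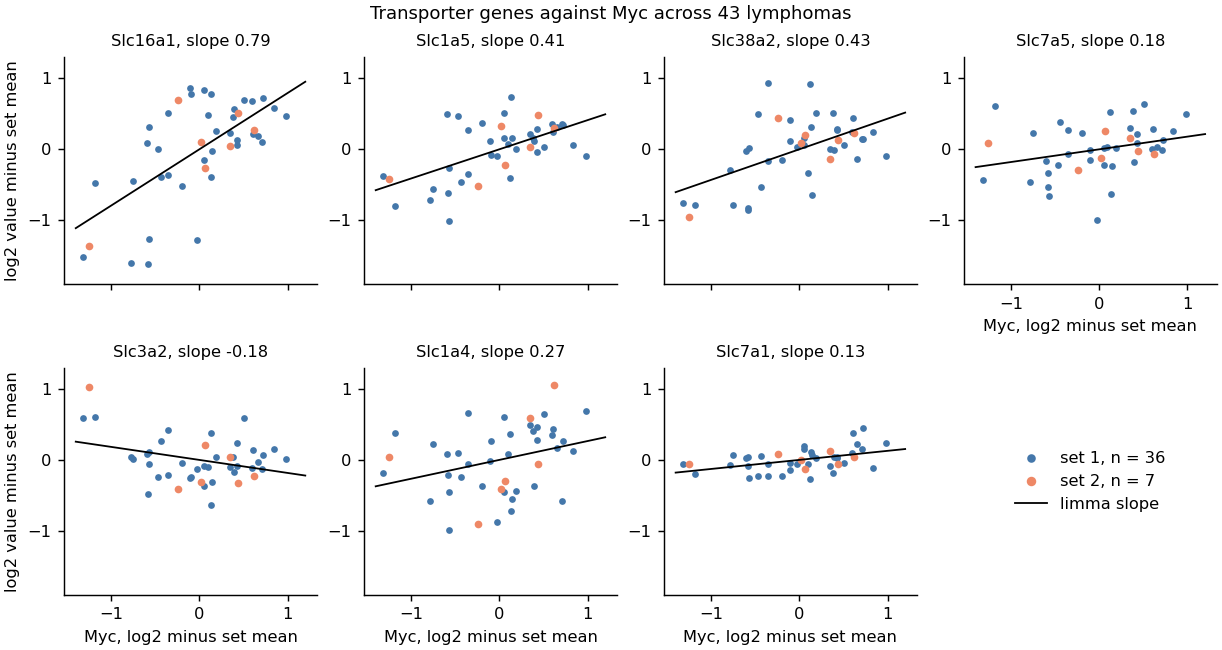
Centred log2 values of each carrier (y axis) against centred log2 Myc (x axis) in 43 lymphomas, blue for set 1 and orange for set 2, with the limma slope as a line. Slc16a1 has the steepest line (0.79) and 6 points far below it or at its low end, and the Slc3a2 line (-0.18) leans on the points lowest in Myc.

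Markers of several cell types moved with Myc as well. Of 13 T cell markers 12 fell as Myc rose, of 15 macrophage markers 8 fell and of 7 plasma cell markers 6 fell, while 1 of 8 pan B cell markers rose. Of 11 neutrophil markers 1 fell, of 4 erythroid markers 1 fell and of 16 stroma and endothelium markers 0 fell. Of all genes 17% were lower and 26.8% higher with Myc. The mean level of the T cell markers ranged from 5.12 to 8.55 in set 1 and from 6.19 to 8.79 in set 2, and that of the macrophage markers from 5.19 to 9.0 and from 6.03 to 9.12. Pan B cell markers ranged from 6.78 to 10.65 in set 1 with a median of 9.98. With the T cell and macrophage scores in the same fit, 0 of the 6 carriers passed, and 301 genes were called higher and 191 lower. The slope on Myc was then 0.26 ± 0.17 for Slc16a1 (limma adjusted p = 0.405), 0.21 ± 0.12 for Slc1a5 (limma adjusted p = 0.287) and 0.37 ± 0.14 for Slc38a2 (limma adjusted p = 0.114), and Slc3a2 stood at 0.03 ± 0.11. Whether these scores differed between tissue and cell pellets was not tested, since the labels do not separate them. Without the 6 lymphomas lowest in Slc16a1 the slope of Slc1a5 passed (0.32 ± 0.11, limma adjusted p = 0.0330) and that of Slc38a2 did not (0.24 ± 0.13, limma adjusted p = 0.182). The slope of Slc16a1 was 0.37 ± 0.13 there, given without a test because leaving out its own lowest values lowers it by construction.

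Scored one by one against the other cells, Slc16a1 fell by 0.54 ± 0.08 per unit of the T cell score (limma adjusted p = 3.69e-06) and Slc1a5 by 0.22 ± 0.06 (limma adjusted p = 0.00297). Slc3a2 ran the other way and rose by 0.15 ± 0.05 (limma adjusted p = 0.0189). Of all genes 15.8% were higher and 24.5% lower with the T cell score. With the macrophage score Slc16a1 (-0.39 ± 0.10), Slc1a5 (-0.25 ± 0.05) and Slc38a2 (-0.24 ± 0.07) fell and Slc3a2 (0.16 ± 0.05) rose, against 17.9% of all genes higher and 27.8% lower. Slc7a5 passed with neither score, at -0.05 ± 0.06 and -0.09 ± 0.06. The plasma cell score ran closer to Myc (r = -0.784 over 43 lymphomas) than the T cell (-0.679) and macrophage (-0.451) scores did. As a description, r with the plasma cell score was -0.511 for Slc38a2, -0.463 for Slc1a5, -0.181 for Slc1a4 and -0.124 for Slc7a5. For Slc3a2 it was 0.457, with rho = 0.200.

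**Figure D3:**
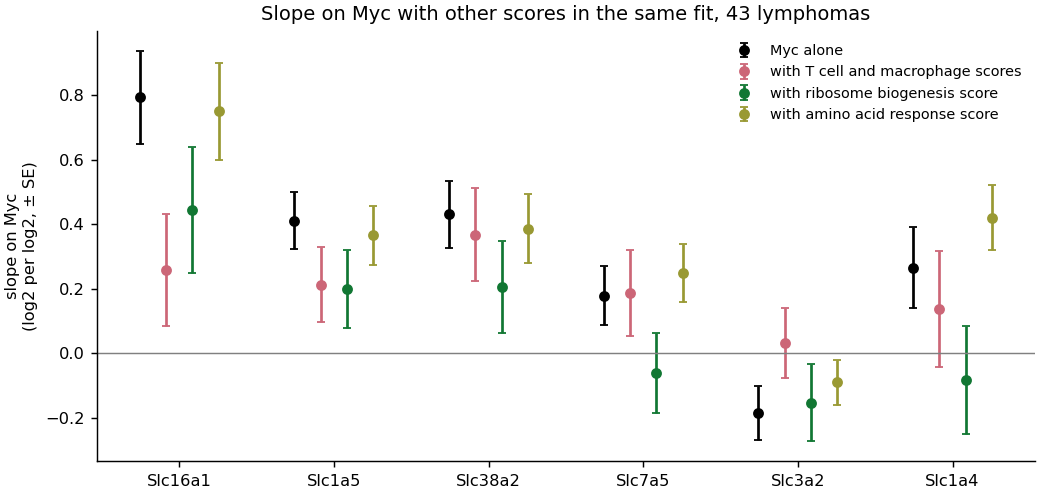
Slopes on Myc (y axis, log2 per log2, points, with bars of 1 SE) of the 6 kept carriers in 43 lymphomas, for Myc alone and with scores of T cells and macrophages, of ribosome biogenesis or of the amino acid response in the same fit. The Slc16a1 slope is 0.79 alone and 0.26 beside the T cell and macrophage scores, and the Slc1a4 slope is 0.27 alone and 0.42 beside the amino acid response score.

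The second question was whether the carriers moved with one another. Among the 15 pairs of the 6 kept carriers, Slc7a5 rose with Slc1a4 (r = 0.660, permutation p = 1e-05, which is as small as 100000 draws allow, and rho = 0.693) and with its heavy chain Slc3a2 (r = 0.493, permutation p = 0.0002, and rho = 0.60). Slc1a5 rose with Slc38a2 (r = 0.547, permutation p = 0.00014, and rho = 0.445) and fell as Slc3a2 rose (r = -0.439, permutation p = 0.00308, and rho = -0.443). Slc16a1 rose with Slc1a5 and Slc38a2 over all 43 lymphomas. A pair was called where each gene passed the limma test over all genes as a predictor of the other, and 5 pairs were called in the positive and 1 in the negative direction. In the regressions on Slc7a5 2.33% of all genes were called higher and 1.12% lower, on Slc3a2 5.67% higher and 6.66% lower, on Slc1a4 3.07% higher, on Slc1a5 23.4% higher and 16.2% lower, on Slc38a2 18% higher and on Slc16a1 27.8% higher.

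The pair Slc7a5 and Slc3a2 had adjusted p of 0.0340 and 0.0158 in the 2 limma regressions, and Slc7a5 and Slc1a4 of 0.00290 and 0.00215. Slc7a5 and Slc3a2 had r = 0.536 in set 1 and 0.597 in set 2, and Slc7a5 and Slc1a4 had 0.736 and 0.368. Without the 2 lymphomas farthest from the median of Slc7a5, r was 0.569 with Slc3a2 and 0.612 with Slc1a4. With the T cell and macrophage scores in the fit 4 pairs were called, these 2 among them, with Slc3a2 and Slc1a4 and Slc38a2 and Slc16a1 as the others. The negative pair Slc3a2 and Slc1a5 was not called there (limma adjusted p = 0.686 and 0.631). It was not called in set 1 alone (0.141 and 0.0233) or without lymphomas D55, D59, D92 and D121 (0.0580 and 0.0246). Slc7a5 and Slc3a2 were not called in set 1 alone either (limma adjusted p = 0.0348 and 0.0616). Slc7a5 and Slc1a5, both carriers of neutral amino acids, had r = -0.028 (permutation p = 0.860).

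Without the 6 lymphomas lowest in Slc16a1, 2 pairs were called, Slc7a5 with Slc3a2 and Slc3a2 with Slc1a5. Over the 37 lymphomas above the gap Slc16a1 had r = 0.370 with Slc1a5 (permutation p = 0.0253) but rho = 0.174 (permutation p = 0.306), and r = 0.386 with Slc38a2 (permutation p = 0.0219) and rho = 0.352 (permutation p = 0.0371). Without the 2 farthest lymphomas these r were 0.195 and 0.211. Over the same 37 Slc16a1 fell as Slc3a2 rose (r = -0.418, permutation p = 0.00882, and rho = -0.355), with -0.480 without the 2 farthest, but the pair did not pass the limma test over all genes in those lymphomas (adjusted p = 0.0703 and 0.0540). In the 6 below the gap r with Slc16a1 lay between -0.515 (Slc1a4) and 0.175 (Slc3a2) and no exact permutation p was under 0.251.

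**Figure D4:**
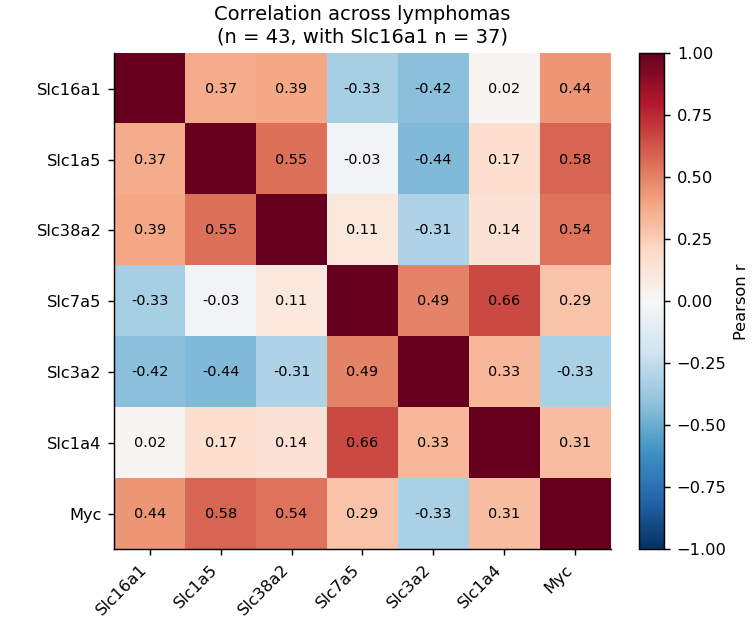
Pearson r (colour and printed value, unitless) between carriers and with Myc across lymphomas, over 43 lymphomas or, for every pair with Slc16a1, over the 37 above the gap in its values. Slc7a5, Slc3a2 and Slc1a4 are positive with each other (0.33 to 0.66), and Slc3a2 is negative with Slc1a5 (-0.44).

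The amino acid response was scored as the mean of 21 kept genes, none of them among the carriers. Their list held Atf4 itself beside genes tied to it. Slc3a2 rose by 1.05 ± 0.20 log2 per unit of this score (limma adjusted p = 0.00413) and Slc1a4 by 1.27 ± 0.33 (limma adjusted p = 0.0184). These were 2 of 6 carriers called higher and 0 lower, against 3.79% and 5.09% of all 8604 genes tested. Slc7a5 had a slope of 0.52 ± 0.27 (limma adjusted p = 0.197), Slc1a5 of -0.76 ± 0.29 (limma adjusted p = 0.0862), Slc38a2 of -0.77 ± 0.33 (limma adjusted p = 0.125) and Slc16a1 of -1.05 ± 0.52 (limma adjusted p = 0.177). As a description, r with the score was 0.650 for Slc3a2 and 0.515 for Slc1a4 (n = 43). In set 1 alone and without the 2 lymphomas farthest from the median of the score, only Slc3a2 passed. Of the 15 macrophage markers 10 rose with this score, and their part in it was not tested. With the T cell and macrophage scores in the fit Slc7a5 rose with the amino acid response score as well (1.26 ± 0.29, limma adjusted p = 0.0427), where 18 genes were called higher and 6 lower.

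With Myc and the amino acid response score in 1 fit, Slc1a4 rose with both, by 0.42 ± 0.10 per log2 unit of Myc (limma adjusted p = 0.00107) and by 1.61 ± 0.29 per unit of the score (limma adjusted p = 0.00291). Slc7a5 rose with Myc in that fit (0.25 ± 0.09, limma adjusted p = 0.0243), as did Slc16a1, Slc1a5 and Slc38a2, and Slc3a2 rose with the score alone (0.98 ± 0.20, limma adjusted p = 0.0123). Thus 5 of 6 carriers were higher with Myc, against 23.9% of genes, and 2 of 6 with the score, against 1.02% higher and 1.22% lower.

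The carriers were also set against 2 measures of growth. With the score of 21 ribosome biogenesis genes 5 of 6 rose, against 32.2% of all genes, by 1.91 ± 0.34 for Slc16a1, 1.10 ± 0.24 for Slc38a2, 1.04 ± 0.20 for Slc1a5, 1.01 ± 0.27 for Slc1a4 and 0.69 ± 0.20 for Slc7a5, with the limma adjusted p at most 0.00406. Slc3a2 had -0.36 ± 0.20 (limma adjusted p = 0.124), and 20.6% of genes were lower. With the T cell and macrophage scores in the fit 2 of 6 passed, Slc7a5 and Slc1a4, where 734 of 8604 genes were called higher and 210 lower. With Myc and the ribosome biogenesis score in 1 fit, 0 carriers passed for Myc, where 296 of 8624 genes were called higher and 313 lower. The Slc16a1 slope on Myc was 0.45 ± 0.19 there (limma adjusted p = 0.151). With the G2/M score of 22 mitotic genes Slc16a1 (1.35 ± 0.28, limma adjusted p = 0.000283) and Slc38a2 (0.61 ± 0.21, limma adjusted p = 0.0174) rose, 2 of 6 against 26% of all genes. None passed beside the T cell and macrophage scores, where 474 of 8603 genes were called higher and 186 lower.

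Other genes of amino acid and lactate use were set against Myc, read against the same shares of all genes. Of 16 other carriers of amino acids or lactate that were kept 1 rose and 3 fell. Slc7a6, a light chain that also pairs with Slc3a2, rose by 0.43 ± 0.07 (limma adjusted p = 3.88e-06). Slc7a7, another partner of Slc3a2, fell by 1.14 ± 0.22 (limma adjusted p = 7.68e-05), Slc16a3, the lactate exporter of glycolytic cells, fell by 0.75 ± 0.18, and Slc1a3, a glutamate carrier, fell by 0.49 ± 0.12. None of these 4 passed beside the T cell and macrophage scores (adjusted p of 0.0702 to 0.294).

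Of 18 aminoacyl tRNA synthetases, which load amino acids onto tRNAs, 6 rose and 0 fell, led by Eprs (0.37 ± 0.06), Vars (0.29 ± 0.06) and Kars (0.25 ± 0.05). Beside the T cell and macrophage scores Eprs passed (limma adjusted p = 0.0266), and Vars (0.0735) and Kars (0.229) did not. Of 10 genes of glutamine and glutamate use 4 rose and 0 fell, namely Cad (0.59 ± 0.07) and Ctps (0.40 ± 0.08) of pyrimidine synthesis, Ppat (0.48 ± 0.10) of purine synthesis and the transaminase gene Got1 (0.29 ± 0.08). Cad also passed beside the T cell and macrophage scores, at 0.45 ± 0.10 (limma adjusted p = 0.00546), while Ctps, Ppat and Got1 did not (limma adjusted p of 0.115 to 0.231). Of 14 genes of amino acid sensing by mTORC1, the kinase complex that starts growth when amino acids are present, 4 rose and 2 fell, with Rheb at 0.27 ± 0.06, Mtor at 0.60 ± 0.20 and Rraga at -0.45 ± 0.16. Beside the T cell and macrophage scores Rheb passed (limma adjusted p = 0.0255), and Mtor (0.715) and Rraga (0.223) did not.

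Of 13 genes of glycolysis, which makes the lactate that Slc16a1 carries, 7 fell and 2 rose with Myc. Those that fell included the aldolase gene Aldoa (-0.76 ± 0.11), the hexokinase gene Hk1 (-0.61 ± 0.13), the phosphofructokinase gene Pfkp (-0.68 ± 0.14) and the glucose carrier gene Slc2a1 (-0.58 ± 0.13). Aldoa and Pfkp passed beside the T cell and macrophage scores as well, and Hk1 (limma adjusted p = 0.377) and Slc2a1 (0.301) did not. Of 21 genes of the amino acid response list 3 rose, with Xpot (0.57 ± 0.09) and Eif4ebp1 (0.36 ± 0.09) among them, and 5 fell, with Atf5 (-0.49 ± 0.10) and Nupr1 (-0.59 ± 0.16) among them. Of these 4 Xpot passed beside the T cell and macrophage scores (limma adjusted p = 0.0299).

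The spleen was compared with the lymphomas in the same way. Slc3a2 stood at 12.0 in the spleen and between 10.19 and 11.64 in the 7 lymphomas of set 2. The difference was 1.40 ± 0.34 (SE, limma adjusted p = 0.00470). Slc7a5 stood at 11.94 against 10.71 to 11.27, a difference of 0.93 ± 0.38 that did not pass (limma adjusted p = 0.0955). For both chains the centred value in the spleen lay above all 43 lymphomas. With set 2 alone Slc7a5 passed (limma adjusted p = 0.0365) and Slc3a2 did not (limma adjusted p = 0.119). Its highest lymphoma was D163, and without D163 the difference was 1.57 ± 0.30 (limma adjusted p = 0.000221).

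The spleen had 9.79 for Slc1a5, a difference of -0.20 ± 0.43, and 6.05 for Slc1a4, a difference of -0.61 ± 0.52. It had 11.41 for Slc38a2 (0.05 ± 0.48), 11.82 for Slc16a1 (0.09 ± 0.74) and 4.98 for Slc7a1 (-0.11 ± 0.17), all within the range of the set 2 lymphomas. Myc itself was at 10.09 against 9.90 to 11.78. So 1 of 6 carriers was called higher and 0 lower, against 6.37% and 5.4% of 8625 genes, and the median difference of all genes was -0.17. The error comes from the spread of the lymphomas, since there was 1 spleen. The spleen lay above all 7 lymphomas for 10 of 10 erythroid markers (mean level 11.63 against 5.11 to 5.44) and 11 of 11 neutrophil markers. It did so for 14 of 17 stroma and endothelium markers (8.82 against 5.73 to 6.45), 5 of 7 plasma cell markers and 9 of 16 macrophage markers. The count was 1 of 13 for T cell, 0 of 5 for adipocyte and 0 of 8 for pan B cell markers. The share of all genes with the spleen above all 7 was not computed, so these counts have no background beside them. The part of these cells in the level of Slc3a2 was not tested. Of 21 genes of the amino acid response list 6 were higher in the spleen and 1 lower, with Nupr1 at 3.22 ± 0.73 and Atf5 at 1.60 ± 0.50.

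The genes most like each carrier across the 43 lymphomas were found by Pearson r of the centred values, as a description without a test. Slc3a2 was most like Manf (0.793) and Pdia6 (0.775), both of protein folding in the endoplasmic reticulum, and the zinc carrier gene Slc39a7 (0.774), and least like Nr2c2 (-0.765). Slc7a5 was most like the nucleotide sugar carrier gene Slc35d1 (0.661), Slc1a4 (0.660) and the zinc carrier gene Slc39a6 (0.649), and least like Trim12a (-0.686). Slc1a4 was most like the Mediator kinase gene Cdk8 (0.707), the replication origin gene Orc2 (0.696) and Tbl2 (0.685), and least like Gnai2 (-0.683).

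Slc1a5 was most like the ubiquitin ligase gene Trim11 (0.873), Metap1d (0.838) and Maz (0.785), and least like Plekhb2 (-0.826). Slc38a2 was most like Dip2b (0.860), the polyadenylation factor gene Cpsf1 (0.815) and Utp25 (0.812) of ribosome assembly, and least like Dusp14 (-0.752). The lists for Slc16a1, over all 43 lymphomas and so with its 6 low values, were led by Gpam of lipid synthesis (0.890), Ccdc34 (0.886) and Gclc of glutathione synthesis (0.861), with C130026I21Rik lowest (-0.879).

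The chromosomes of the genes most like each carrier were looked up after seeing the data. Slc38a2 lies on chromosome 15, and 17 (34%) of the 50 genes most like it lay there too, where 4.0% of kept genes lie. Slc1a4 lies on chromosome 11, and 23 (46%) of its 50 most like genes lay on chromosome 5, which holds 6.33% of kept genes, against 1 on chromosome 11. For Slc7a5, on chromosome 8, 10 of 50 (20%) lay on chromosome 5, and for Myc 11 of 50 (22%). Chromosome membership was taken from GRCm38.p6.

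The mean of 343 standardised chromosome 15 genes, Slc38a2 and Myc left out, was above 0.5 in 4 lymphomas, highest in D56 at 1.25 and lowest of the 4 at 0.67 in D161, and the next lymphoma stood at 0.35. D56 and D55, 2 of the 4, also had the highest centred Slc38a2 values, 0.94 and 0.92. Slc38a2 had a slope of 0.76 ± 0.19 on this mean, which did not pass over all 8282 genes tested on other chromosomes and the carriers (limma p = 0.000199, adjusted p = 0.230), where 0.0362% were called higher. Chromosome 15 was picked from the genes most like Slc38a2 in these same lymphomas, so this slope repeats that choice. With the chromosome 15 mean in the fit the slope of Slc38a2 on Myc was 0.45 (limma adjusted p = 1.97e-05).

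The mean of 546 chromosome 5 genes was above 0.5 in 5 lymphomas, from 0.67 in D43 to 1.05 in D62. Slc7a1 itself lies on chromosome 5, but it was below the filter and entered neither this mean nor its fit. Its centred values in these 5 lymphomas were 0.45 in D35, 0.24 in D43, 0.23 in D71, 0.20 in D62 and -0.05 in D86. Any link of chromosome 5 to the rise of Slc7a1 with Myc was not tested. With this chromosome 5 mean Slc16a1 (0.91 ± 0.25, limma adjusted p = 0.0178), Slc1a4 (0.68 ± 0.17, limma adjusted p = 0.0127) and Slc7a5 (0.40 ± 0.13, limma adjusted p = 0.0418) rose, 3 of 6 carriers against 6.97% of genes higher and 4.73% lower. Chromosome 5 was picked from the genes most like Slc1a4 and Slc7a5 in these same lymphomas. The slopes of both repeat that choice and are not independent support. The Slc16a1 slope spans its gap, and its 6 low lymphomas had chromosome 5 means between -0.50 and -0.31. None of the 6 carriers passed beside the T cell and macrophage scores, where 1 gene was called higher and 3 lower. In set 1 alone 1 carrier passed and 164 genes were higher and 77 lower. Without the 2 lymphomas farthest from the median 941 genes were higher and 671 lower, against 563 and 382. With the chromosome 5 mean in the Myc fit the slope of Slc1a4 on Myc was 0.02 (limma adjusted p = 0.915) and that of Slc3a2 was -0.26 (limma adjusted p = 0.0398). With the chromosome 5 and 15 means in the fit, the pair of Slc7a5 with Slc1a4 was not called (limma adjusted p = 0.0600 and 0.115), nor was that of Slc7a5 with Slc3a2 (limma adjusted p = 0.0600 and 0.0041).

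**Figure D5:**
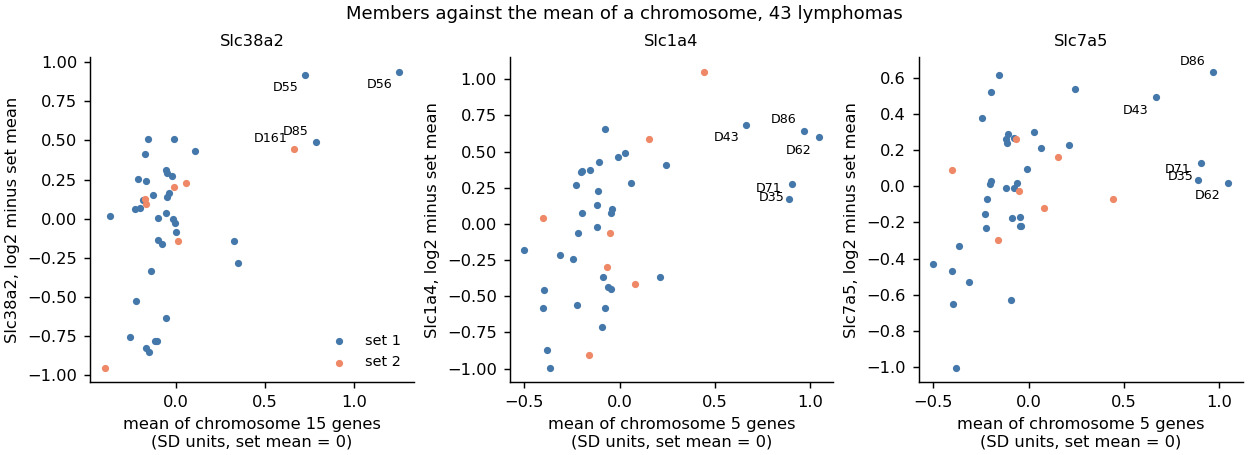
Centred log2 values (y axis) of Slc38a2 against the mean of chromosome 15 genes, and of Slc1a4 and Slc7a5 against the mean of chromosome 5 genes (x axis, SD units), in 43 lymphomas, blue for set 1 and orange for set 2. Lymphomas with a mean above 0.5 are named, 4 for chromosome 15 and 5 for chromosome 5, and D56 and D55 have the highest Slc38a2 values.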

How the data were processed

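The deposited table held log2 expression values of 22690 probe sets on 44 arrays, which the authors had computed by RMA (affy package, versions not given), per the submitters' processing notes. No value was missing. The 2 sets of arrays are known only from title numbers and column medians. Probe sets with 1 gene symbol in GEO's platform annotation were used (20380), 691 with several and 1555 with none were left out. Symbols were checked by Entrez identifier against GRCm38.p6 (20351 matched, 0 renamed). A gene was represented by its probe set of highest mean, and 8625 of 12393 genes with at least 1 lymphoma above its set's median were kept.

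Genes were regressed on Myc or on a score, or the spleen was compared with the lymphomas, with the set as a covariate, in limma 3.58.1 (R 4.3.3; eBayes with an intensity trend, two-sided, Benjamini-Hochberg adjusted p under 0.05 over all kept genes). A predictor's own genes were left out of its fit. A score was the mean of the centred values of a list's kept genes. Simulated slopes of 0.25, 0.5 and 1 residual SD per SD of Myc were recovered in 0%, 33% and 100% of 200 changed genes among 8625. Differences of 1, 2 and 3 log2 in 1 array were recovered in 25%, 72% and 88%. The real Myc fit called 2309 genes higher and 1464 lower, so its cutoff and its recovery can differ. The number of arrays limits the precision.

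The members, gene lists and tests were chosen with earlier results of these data known. The named genes were all members, Myc, for each member the 3 genes with the highest and the 1 with the lowest r, and up to 4 genes per list by the size of the moderated t. Alternatives concerned the filter, probe set choice, scaling, eBayes settings, array weights (statmod 1.5.0), covariates and samples. The fits without the 6 lymphomas low in Slc16a1 and those with chromosome means were chosen after seeing the data.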

Additional observations from a re-analysis of the deposited data

How the results depend on the processing

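The number of kept carriers that passed with Myc was 3, and it was 5 without the set, with quantile normalization, with equal column medians, with ranks and beside the amino acid response score. All 5 were higher except with quantile normalization, where 4 were higher and Slc3a2 was lower. It was 0 in set 2 alone, beside the T cell and macrophage scores, beside 6 other-cell scores and beside the ribosome biogenesis score. With the amino acid response score the count of 2 became 1 without the 2 farthest lymphomas and in set 1 alone. With the G2/M score the count of 2 became 5 without the set, 1 in set 1 alone and 0 beside the T cell and macrophage scores, and with the ribosome biogenesis score the count of 5 became 2 beside them. The 6 pairs became 2 without the 6 lymphomas low in Slc16a1. With the chromosome 5 mean the count of 3 became 1 in set 1 alone and 0 beside the T cell and macrophage scores. In the spleen the count of 1 became 2 without the set and with array weights, and leaving out each set 2 lymphoma kept it at 1. Slc3a2 turned from -0.36 to 0.48 with the ribosome biogenesis score without the set, and to 0.64 beside the T cell and macrophage scores, where it did not pass. Below the threshold on both sides, its slope on Myc went from -0.18 to 0.03 beside those scores, 0.14 beside 6 other-cell scores and 0.05 without the set. Beside the ribosome biogenesis score the slopes of Slc7a5 and Slc1a4 on Myc were -0.06 and -0.08, and in set 2 alone that of Slc7a5 was -0.01. The causes were not tested, except that set 2 alone had 7 lymphomas.

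Calls over all genes with Myc were 2309 higher and 1464 lower. They became 4028 and 597 without the set, 18 and 34 in set 2 alone, 110 and 88 beside 6 other-cell scores, 296 and 313 beside ribosome biogenesis and 893 and 693 without the 6 lymphomas low in Slc16a1. Beside the G2/M score 1359 were higher, beside the chromosome 5 mean 1487, and over 13592 probe sets 3856. The 326 higher and 438 lower with the amino acid response score became 15 and 12 in set 1 alone, 114 higher beside the plasma cell score and 6315 and 37 without the set. Without the set G2/M calls went from 2234 and 1339 to 5425 and 158, and ribosome biogenesis calls from 2773 and 1773 to 5847 and 177, while beside the T cell and macrophage scores they were 474 and 186, and 734 and 210. In the spleen 549 were higher and 466 lower, 980 and 39 without the set, 485 and 718 with equal medians, 984 and 1322 with array weights, 201 lower in set 2 alone, 727 lower without lymphoma D163 and 714 lower over probe sets. The median of all genes without the set was 0.19 with Myc, 0.61 with the amino acid response, 0.45 with G2/M, 0.55 with ribosome biogenesis and 0.40 in the spleen, and -0.30 in the spleen with equal medians. Leaving out D55, D59, D92 and D121, whose B cell or stroma markers stood apart, changed no call of the 6 carriers with Myc. No paired analysis was possible because the lymphomas and the spleen share no replicate number.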
